A study of Mus musculus with 2 samples.

Results

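Slit1, Slit2 and Slit3 encode secreted proteins, and Robo1 and Robo2 encode membrane receptors that bind them. These 5 genes, out of 32285 in the files, were chosen by name as the Slit ligands and Robo receptors and described in single cells of the newborn mouse pallium. Slit binding to Robo receptors repels growing axons and migrating cells, and heparan sulfate proteoglycans take part in the binding. In the developing mouse forebrain the family is best known for guiding axon tracts around and across the midline, for the chain migration of neuroblasts toward the olfactory bulb and for the timing of progenitor division.

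All cells came from wild-type mice in which cells dividing on embryonic day 12 took up EdU, a thymidine analogue that marks newly made DNA. The pallium, the dorsal forebrain that includes the cerebral cortex, was dissected and pooled on postnatal day 3, and cells that excluded propidium iodide and were among the 10% brightest for EdU were sorted. The 2 libraries, replicate 1 and replicate 2, form a single group, with no treatment and no control, so levels were compared between kinds of cells inside the libraries. The sort sets which cells could be seen. The labels do not say that the libraries came from different animals. A p-value here therefore reflects only counting error and how far group differences vary between these libraries, a spread that may be technical.

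Cell groups were set by marker genes outside the family, each cell passing only 1 of 6 gates. Oligodendrocyte precursor cells (OPCs) held at least 2 unique molecular identifiers (UMIs, each a single captured transcript) of Pdgfra, astroglia of Aqp4, glutamatergic neurons of Neurod2 plus Neurod6, neuroblasts of Sp8 and cells of the caudal ganglionic eminence (CGE) type of Adarb2. Cells of the medial ganglionic eminence (MGE) type held at least 10 UMIs of Sst. After filtering, 11228 and 10965 cells with medians of 7542.5 and 8523 UMIs remained in replicates 1 and 2, and 7016 and 7115 of them fell into 1 of the 6 groups. OPCs numbered 3766 and 3854, astroglia 1539 and 1519, glutamatergic cells 1031 and 1051, neuroblasts 420 and 469, CGE cells 236 and 201 and MGE cells 24 and 21. Cajal-Retzius cells (91 and 110) and microglia (123 and 140) were described without a test. Every listed marker of the OPC, astroglia, glutamatergic and MGE gates was higher in its own group than in the other 5. In the neuroblast and CGE gates 4 of 6 were, the exceptions being Gad1 and Dcx, and Gad1 and Gad2. The CGE sum of replicate 1 also held 387 CPM (UMIs of a gene scaled by the group's total to counts per 1e6) of 6 microglial markers against 4.28 in replicate 2, and the part of these reads in CGE values was not tested. The libraries shared 40 barcodes among the cells kept, 16 of them in a gated group in both.

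The members lie on 4 chromosomes of the mouse assembly GRCm38, with positions from GENCODE M21. Slit1 is on the minus strand at chr19:41600257-41743665, Slit2 on the plus strand at chr5:47983138-48307733 and Slit3 on the plus strand at chr11:35121224-35708507. Robo1, on the plus strand at chr16:72308306-73046095, and Robo2, on the minus strand at chr16:73891839-74411825, are neighbours with 845743 bases between them. No exon of a member overlapped an exon of another counted gene. Introns of Slit2 and Slit3 hold the microRNA genes Mir218-1 (chr5:48223942-48224051) and Mir218-2 (chr11:35616816-35616925), both on the host's strand. Their shared mature product is shown because its genes lie inside 2 of the ligand genes. Capitals mark the seed, bases 2 to 8 (RefSeq, GRCm38.p6), and the microRNA itself was not measured by these libraries.
mmu-miR-218-5p: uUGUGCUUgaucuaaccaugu

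Promoters of 300 bases, 250 before and 50 after the start of transcription, were found in RefSeq (GRCm38.p6) for 4 of the 5 members. A promoter of each receptor is shown because Robo1 and Robo2 both had high levels in cells gated by Neurod2 and Neurod6. These are transcription factors of a family that binds E-boxes. Robo2 was also high in neuroblasts, CGE cells and Cajal-Retzius cells, outside that gate, and binding was not tested. Capitals mark the E-box CANNTG, which reads the same on both strands as a pattern.
Robo1: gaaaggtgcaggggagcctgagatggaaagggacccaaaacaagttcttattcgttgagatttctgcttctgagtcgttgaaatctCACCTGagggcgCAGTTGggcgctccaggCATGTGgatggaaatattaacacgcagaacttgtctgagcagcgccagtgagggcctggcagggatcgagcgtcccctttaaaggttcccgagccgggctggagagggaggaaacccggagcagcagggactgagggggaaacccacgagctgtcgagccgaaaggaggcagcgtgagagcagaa
Robo2: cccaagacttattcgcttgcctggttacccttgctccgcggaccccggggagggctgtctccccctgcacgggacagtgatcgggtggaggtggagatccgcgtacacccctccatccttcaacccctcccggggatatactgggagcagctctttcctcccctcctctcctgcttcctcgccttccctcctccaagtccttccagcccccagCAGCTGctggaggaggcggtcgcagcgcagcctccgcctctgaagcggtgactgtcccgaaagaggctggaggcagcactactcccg

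The Robo1 window (chr16:72662899-72663198, plus strand) held 3 E-boxes and the Robo2 window shown (chr16:74411776-74412075, minus strand) held 1. The Robo1 window lies inside the gene span given above, away from its start. Further Robo2 windows, at chr16:75092721-75093020 and chr16:75447244-75447543, held 1 each and are not shown. Slit2 and Slit3 were also highest in glutamatergic cells among the 6 groups, and their windows held 0 E-boxes and are not shown. Of all 32851 RefSeq promoters of this length, 72.3% held at least 1 such match and 17.6% held 3 or more, so a match is common and is given only as a description.

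Across the 6 groups each member had a different order of levels. Slit1 was highest in the GABAergic groups, Slit2 in glutamatergic neurons followed by OPCs, and Slit3 was nearly undetected outside glutamatergic and Cajal-Retzius cells. Robo1 was highest in glutamatergic and MGE cells and lowest in neuroblasts, and Robo2 was high in glutamatergic cells, neuroblasts and CGE cells. Levels are CPM of the summed UMIs of a group and were not compared between genes, since the libraries read transcripts near their 3' ends.

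**Figure D1:**
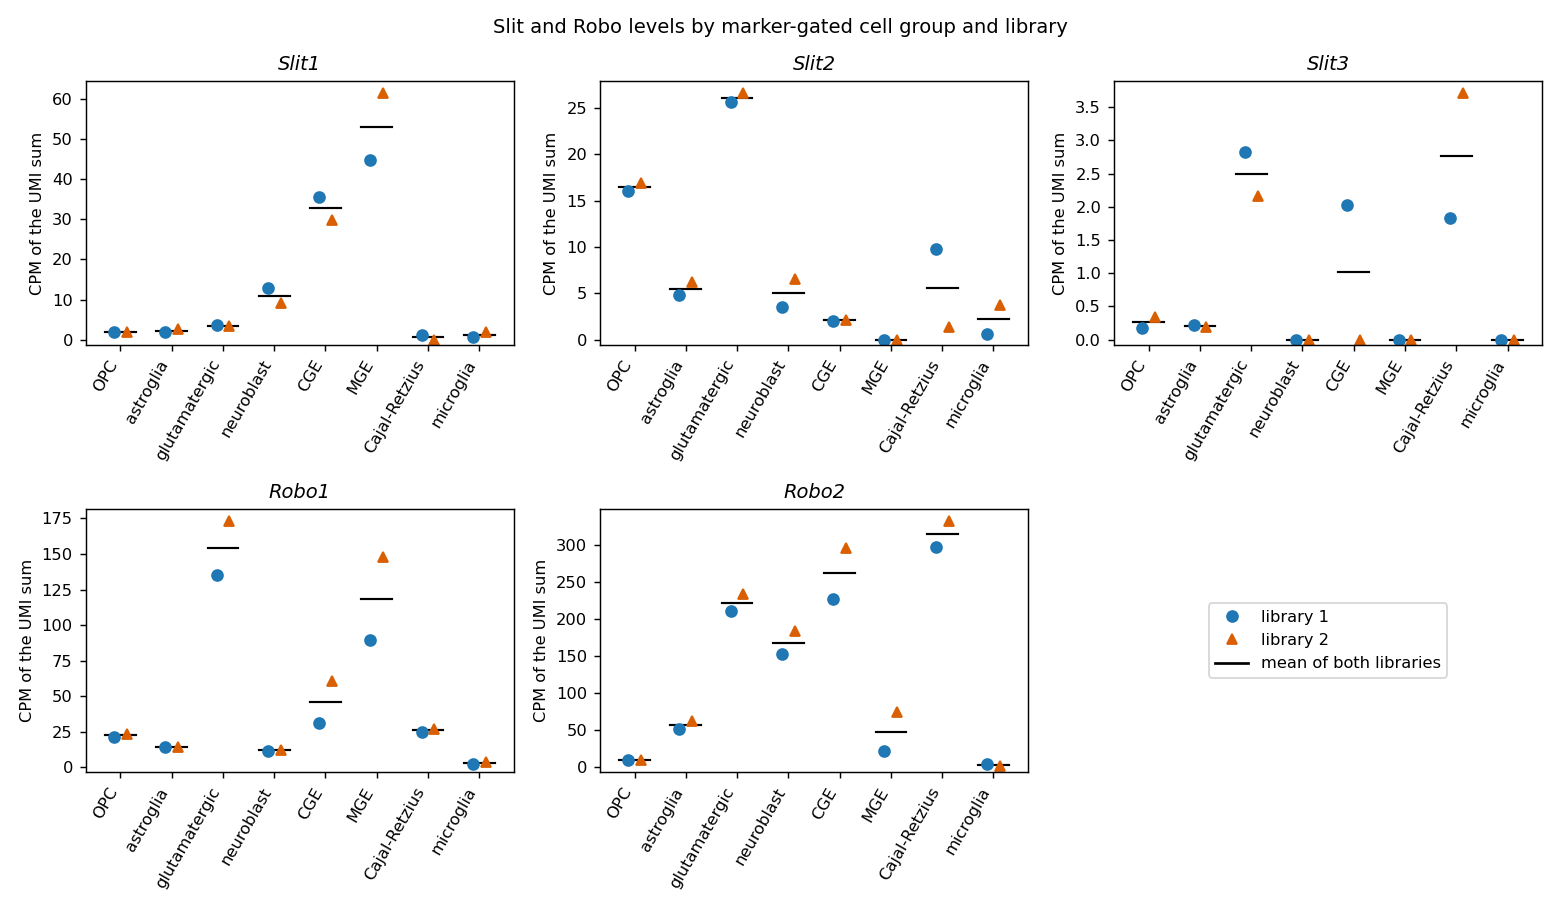
CPM of each member in the UMI sums of 8 cell groups, with a point per library and a line at the mean. Slit2 in glutamatergic cells sits at 25.6 and 26.6, above its OPC values of 16.0 and 16.9, and Robo2 reaches 297 and 332 in Cajal-Retzius cells.

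All 5 members passed the filter on low counts, Slit3 only through its level in glutamatergic cells. Differences were tested in a single model over 12 sums with edgeR's quasi-likelihood test and Benjamini-Hochberg adjustment over all 13951 genes tested. A difference was called at an adjusted p under 0.05, and 50 of the 75 member differences were called. They include 3 calls of Slit3, whose direction is tied to the filter. In all 50 both libraries had the same direction, and in 49 the values of the 2 groups did not overlap. The share of all called genes with such values was not computed, so these counts cannot be read as a trait of the members. Calls were common in general. All 5 members were called between OPCs and glutamatergic cells, where 67.3% of all genes were, and between glutamatergic cells and neuroblasts, where 50.0% were. Between OPCs and neuroblasts 4 members were called (65.3% of all genes), between OPCs and CGE cells 4 (41.3%), between astroglia and glutamatergic cells 4 (72.8%), between astroglia and CGE cells 4 (52.6%) and between glutamatergic and CGE cells 4 (15.4%). Between OPCs and astroglia 3 were called (68.7%), as between OPCs and MGE cells (11.8%), glutamatergic and MGE cells (8.04%), neuroblasts and CGE cells (25.1%) and neuroblasts and MGE cells (17.3%). Between astroglia and neuroblasts 2 were called (69.6%), as between astroglia and MGE cells (20.2%), and between CGE and MGE cells 1 was called (6.51%). In pairs of large groups most genes were called, so the members' counts there lie near the background.

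**Figure D2:**
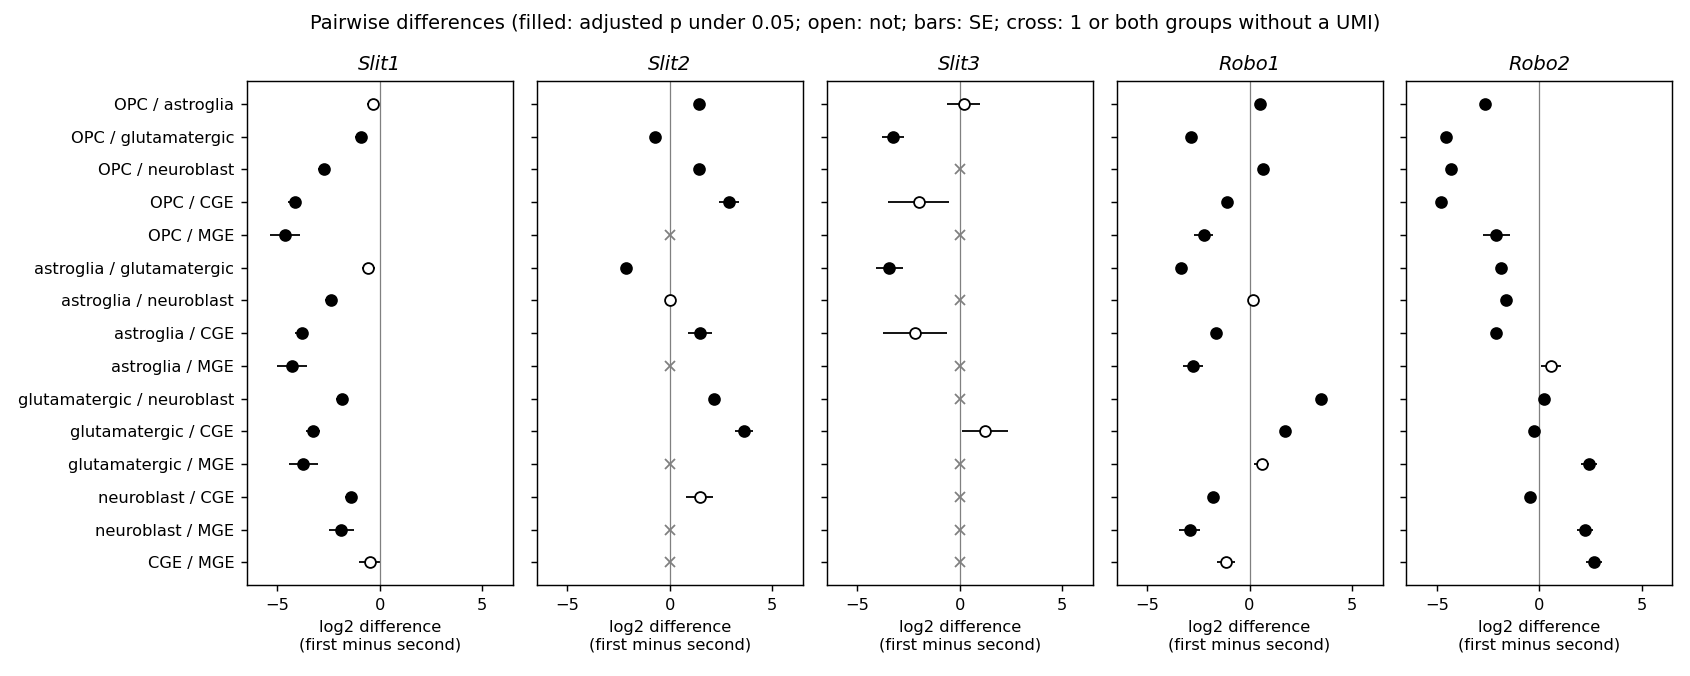
Log2 difference of each member in the 15 pairs of groups, the first group named minus the second, with SE bars. Filled points had an adjusted p under 0.05 (edgeR quasi-likelihood test, Benjamini-Hochberg), open points did not, and crosses mark pairs in which 1 or both groups had no UMI. Slit1 points lie left of 0 wherever the second group is GABAergic, and Robo2 differences between glutamatergic, neuroblast and CGE cells lie close to 0.

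Slit1 encodes the family member with the most nervous-system-restricted expression in rodents, and the septum and the migrating neuroblasts are among its known sources. Its level was 44.8 CPM in replicate 1 and 61.5 CPM in replicate 2 in MGE cells, from 4 and 5 UMIs in 24 and 21 cells. All 9 of these UMIs came from cells with over 5% mitochondrial UMIs, and the 9 and 4 MGE cells at or under 5% held 0, which allows up to 35.9 CPM. The part of mitochondrial share in this level was not tested. CGE cells had 35.5 and 30.0 CPM of Slit1, and neuroblasts 12.8 and 9.19 CPM. At or under 5% mitochondrial UMIs, 138 and 128 CGE cells had 28.6 and 23.3 CPM. With that limit 395 and 441 neuroblasts had 12.9 and 8.74 CPM. The 3 GABAergic groups were above the other 3 in both libraries. Slit1 stood at 3.58 and 3.31 CPM in glutamatergic cells, 1.80 and 2.54 CPM in astroglia and 1.82 and 2.00 CPM in OPCs. Microglia, immune cells used here as the reference for free RNA, had 0.633 and 1.87 CPM.

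CGE cells exceeded neuroblasts in Slit1 by 1.42 ± 0.30 on the log2 scale (SE; adjusted p = 0.000486, edgeR quasi-likelihood test). They exceeded glutamatergic cells by 3.26 ± 0.32 (edgeR adjusted p = 2.78e-09) and OPCs by 4.16 ± 0.31 (edgeR adjusted p = 1.41e-12). Neuroblasts exceeded glutamatergic cells by 1.84 ± 0.30 (edgeR adjusted p = 5.84e-06), and glutamatergic cells exceeded OPCs by 0.90 ± 0.29 (edgeR adjusted p = 0.00828). In the order of levels, MGE and CGE cells did not differ beyond their spread (0.48 ± 0.56, edgeR adjusted p = 0.699), nor did glutamatergic cells and astroglia (0.55 ± 0.32, adjusted p = 0.116) or astroglia and OPCs (0.34 ± 0.27, adjusted p = 0.268). The difference between MGE cells and neuroblasts (1.89 ± 0.61, edgeR adjusted p = 0.0298) rests on 9 UMIs of Slit1. With a gate that also took cells with at least 2 UMIs of Lhx6, an alternative chosen after seeing the data, MGE cells numbered 38 and 39 and had 27.9 and 23.9 CPM. That difference was then 0.95 ± 0.56 with an adjusted p of 0.265, in a range of 0.00159 to 0.265 over 8 alternatives.

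Cells with both Sp8 and Adarb2, which the exclusive gates leave out, had 31.4 and 24.2 CPM of Slit1 in 82 and 122 cells. Among cells in none of the gates, those with at least 2 UMIs of Dlx1 plus Dlx2, transcription factors of the GABAergic lineage, had 24.4 and 14.8 CPM when non-dividing and 11.5 and 19.1 CPM when dividing. Ungated cells without these UMIs had 2.97 and 1.97 CPM. These subsets were chosen after seeing the data and were not tested. Of all Slit1 UMIs kept, 52.7% and 55.0% fell into the 6 groups and 30.1% and 23.8% into cells that passed no gate.

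Slit2 encodes a ligand known in mice for keeping forebrain axon tracts in place together with Slit1. Glutamatergic cells had 25.6 and 26.6 CPM of Slit2, and OPCs had 16.0 and 16.9 CPM. All other groups lay lower, with 4.82 and 6.20 CPM in astroglia, 3.48 and 6.53 CPM in neuroblasts and 2.03 and 2.14 CPM in CGE cells, the last from 2 UMIs in each library. MGE cells had 0 UMIs of Slit2, which with 3 counts over both libraries allows up to 17.6 CPM. Microglia had 0.633 and 3.74 CPM, so the CGE values do not stand above that reference.

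Glutamatergic cells exceeded OPCs in Slit2 by 0.72 ± 0.12 on the log2 scale (edgeR adjusted p = 4.09e-06), and OPCs exceeded astroglia by 1.42 ± 0.14 (edgeR adjusted p = 1.83e-10). OPCs exceeded neuroblasts by 1.44 ± 0.22 (edgeR adjusted p = 9.63e-07) and CGE cells by 2.90 ± 0.49 (edgeR adjusted p = 1.64e-05). Astroglia and neuroblasts did not differ beyond their spread (0.02 ± 0.26, edgeR adjusted p = 0.946), nor did neuroblasts and CGE cells (1.46 ± 0.65, adjusted p = 0.103). Astroglia were above CGE cells by 1.48 ± 0.60 (edgeR adjusted p = 0.0402), a call lost in 3 of 11 alternatives, with adjusted p-values up to 0.107. The call of glutamatergic over MGE cells (edgeR adjusted p = 0.0397) stands for a level at least 1.48-fold higher and was lost in 2 of 8 alternatives, with adjusted p-values up to 0.0999.

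OPCs, the most numerous group, held 43.7% and 44.8% of all Slit2 UMIs in the 2 libraries, against 14.0% and 14.4% in glutamatergic cells. With Eomes, a marker of intermediate progenitors, the glutamatergic cells had 23.1 and 24.7 CPM, and without it 26.3 and 27.3 CPM. This split was chosen after seeing the data and not tested.

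Slit3 encodes the ligand whose mouse mutants are best known for defects outside the brain, in the diaphragm and kidney. It was rare, with 49 UMIs in replicate 1 and 76 in replicate 2 over all cells kept. Glutamatergic cells had 2.83 and 2.16 CPM, OPCs 0.179 and 0.338 CPM and astroglia 0.216 and 0.196 CPM. Neuroblasts had 0 UMIs in both libraries, which allows up to 0.395 CPM, and microglia also had 0. In Cajal-Retzius cells Slit3 stood at 1.83 and 3.71 CPM, from 3 and 8 UMIs. Glutamatergic cells exceeded OPCs by 3.23 ± 0.53 on the log2 scale (edgeR adjusted p = 5.17e-06) and astroglia by 3.43 ± 0.66 (edgeR adjusted p = 3.82e-05), and they were at least 6.31-fold higher than neuroblasts (edgeR adjusted p = 0.000835). The log2 fold change of Slit3, OPC against glutamatergic, was -3.89 with replicate 1 alone and -2.67 with replicate 2 alone. Slit3 passed the filter on low counts only through glutamatergic cells, the higher group in all 3 calls, so their direction is tied to the filter. Without the filter these calls were kept, on the same 19 and 17 UMIs in 12 and 10 glutamatergic cells, which is no separate support. The other 12 pairs were not called. CGE cells had 2 UMIs in replicate 1 and 0 in replicate 2, both in a single cell, and MGE cells had 0, so no order among these groups was detectable at this depth.

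Robo1 encodes a receptor that, with Robo2, guides callosal and corticofugal axons in mice. Its level was 135 and 173 CPM in glutamatergic cells, 89.7 and 148 CPM in MGE cells and 31.4 and 61.0 CPM in CGE cells. OPCs had 21.2 and 23.7 CPM, astroglia 14.5 and 14.0 CPM and neuroblasts 11.6 and 12.3 CPM, all above the 2.53 and 3.74 CPM of microglia. Replicate 2 was higher than replicate 1 in all 3 neuronal groups with high levels.

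Glutamatergic cells exceeded CGE cells in Robo1 by 1.74 ± 0.15 on the log2 scale (edgeR adjusted p = 2.62e-10), OPCs by 2.84 ± 0.06 (edgeR adjusted p = 7.64e-27) and neuroblasts by 3.51 ± 0.13 (edgeR adjusted p = 1.30e-20). CGE cells exceeded neuroblasts by 1.77 ± 0.26 (edgeR adjusted p = 4.01e-06) and OPCs by 1.10 ± 0.21 (edgeR adjusted p = 6.73e-05). Astroglia differed from CGE cells by -1.61 over both libraries and by -0.91 with replicate 1 alone. OPCs were above astroglia by 0.51 ± 0.09 (edgeR adjusted p = 1.79e-05) and above neuroblasts by 0.67 ± 0.17 (edgeR adjusted p = 0.00107). Of neighbours in the order, glutamatergic and MGE cells were not called apart (0.59 ± 0.35, edgeR adjusted p = 0.382). The median log2 difference of all genes in that pair was 0.49 in favour of glutamatergic cells. MGE and CGE cells (1.14 ± 0.46, edgeR adjusted p = 0.151) and astroglia and neuroblasts (0.16 ± 0.19, edgeR adjusted p = 0.477) were not called apart either. With the wider MGE gate glutamatergic cells were above MGE cells by 1.24 ± 0.30 (adjusted p = 0.00590, range 0.00590 to 0.570 over 8 alternatives), and MGE cells then had 69.7 and 71.8 CPM.

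Robo2 encodes the second receptor, which in mice acts with Robo1 in axon guidance and in progenitors of the cortex. Cajal-Retzius cells, early-born neurons of the cortical surface, had 297 and 332 CPM of Robo2 and were not tested. Their median depths were 18521 and 18858.5 UMIs and Scrublet marked 23.1% and 19.1% of them as doublets, whose part in this level was not tested. CGE cells had 227 and 295 CPM, glutamatergic cells 210 and 233 CPM and neuroblasts 152 and 184 CPM. Astroglia had 51.6 and 62.1 CPM, MGE cells 22.4 and 73.8 CPM from 2 and 6 UMIs, and OPCs 9.49 and 10.3 CPM. OPCs were lowest of the 6 groups in both libraries, and microglia lay lower still at 3.80 and 2.34 CPM. With Scrublet doublets left out, OPCs had 7.48 and 8.01 CPM.

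CGE cells exceeded OPCs in Robo2 by 4.79 ± 0.11 on the log2 scale (edgeR adjusted p = 5.08e-25), and glutamatergic cells exceeded OPCs by 4.54 ± 0.06 (edgeR adjusted p = 1.45e-32). Neuroblasts exceeded astroglia by 1.65 ± 0.06 (edgeR adjusted p = 2.40e-20) and astroglia exceeded OPCs by 2.68 ± 0.07 (edgeR adjusted p = 4.13e-25). CGE cells exceeded MGE cells by 2.68 ± 0.39 (edgeR adjusted p = 1.27e-05), a difference for which the MGE sums held 8 UMIs. With replicate 1 alone, the log2 differences from MGE cells moved to 3.51 for CGE cells, to 3.43 from 2.44 for glutamatergic cells, to 3.16 from 2.22 for neuroblasts and to -1.04 from -2.11 for OPCs. The differences among the 3 highest tested groups were small. Glutamatergic cells were above neuroblasts by 0.21 ± 0.06 (edgeR adjusted p = 0.00208), a call lost in 3 of 11 alternatives, with adjusted p-values up to 0.207. Of the neuroblasts, 52.4% and 53.5% were dividing cells (defined below), whose part in the differences of neuroblasts from other groups was not tested. CGE cells were above glutamatergic cells by 0.25 ± 0.08 (edgeR adjusted p = 0.0277), with overlapping libraries, and this call was lost in 6 of 11 alternatives, with adjusted p-values up to 0.794. CGE cells were above neuroblasts by 0.46 ± 0.09 (edgeR adjusted p = 0.000119), a call lost in 1 of 11 alternatives (adjusted p = 0.310). MGE cells were above OPCs by 2.11 ± 0.67 (edgeR adjusted p = 0.0359), a call lost in 2 of 8 alternatives (up to 0.0785). Astroglia and MGE cells were not called apart (0.57 ± 0.50, edgeR adjusted p = 0.480). Over all genes the median log2 difference in that pair was 0.55 in favour of astroglia. Across the 5 pairs with MGE cells this median was 0.42 to 0.55 in favour of the other group.

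The receptors differed from each other in which groups were high. Neuroblasts had low Robo1 with high Robo2, and OPCs were above astroglia in Robo1 but below them in Robo2. Of all Robo1 UMIs, 24.9% and 24.1% lay in OPCs and 31.7% and 36.0% in glutamatergic cells. Of all Robo2 UMIs, 5.47% and 5.28% lay in OPCs, 24.3% and 24.3% in glutamatergic cells, and 8.38% and 9.52% in the Cajal-Retzius cells, which were 91 and 110 cells.

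To compare shares of cells with a UMI at equal depth, 2000 UMIs were drawn from each cell, cells with fewer were left out, and shares are given with 95% Clopper-Pearson intervals that cover counting error only. Robo2 was found in 41.8% (31.5% to 52.6%) and 53.6% (43.9% to 63.2%) of Cajal-Retzius cells and in 34.0% (26.6% to 42.0%) and 40.7% (33.1% to 48.7%) of CGE cells. It was found in 33.0% (30.0% to 36.1%) and 35.3% (32.4% to 38.4%) of glutamatergic cells, 27.5% (23.2% to 32.2%) and 28.6% (24.5% to 33.0%) of neuroblasts and 11.8% (10.2% to 13.6%) and 12.1% (10.5% to 13.9%) of astroglia. Microglia, with median depths of 12292 and 14389 UMIs before thinning, gave 0.833% (0.0211% to 4.56%) and 0 of 140 cells, which allows up to 2.14% (for 0 cells, limits in the text are 3 cells over the number of cells, in place of an interval). The Robo2 shares of OPCs, 2.32% (1.85% to 2.88%) and 2.00% (1.57% to 2.51%), lay within these microglial limits, which are wide with 120 and 140 cells. In CPM, where all cells and UMIs enter, Robo2 was at 9.49 and 10.3 in OPCs against 3.80 and 2.34 in microglia. Leaving out Scrublet doublets gave 7.48 and 8.01 in OPCs, and the part of doublets in this level was not tested.

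Robo1 was found in 26.2% (23.4% to 29.1%) and 28.0% (25.2% to 30.8%) of glutamatergic cells and in at most 11.7% of cells in the other groups, MGE cells aside. The 15 and 16 MGE cells deep enough for thinning gave 33.3% (11.8% to 61.6%) and 25.0% (7.27% to 52.4%). OPCs gave 4.56% (3.90% to 5.30%) and 4.96% (4.28% to 5.71%) for Robo1, beside 1.67% (0.202% to 5.89%) and 0.714% (0.0181% to 3.92%) in microglia, inside the microglial interval in replicate 1 and above it in replicate 2. For Slit2 the shares were 5.71% (4.31% to 7.40%) and 5.97% (4.59% to 7.62%) in glutamatergic cells and 3.23% (2.67% to 3.87%) and 3.40% (2.83% to 4.04%) in OPCs, beside 0 of 120 cells, which allows up to 2.50%, and 0.714% (0.0181% to 3.92%) in microglia. The Slit2 share of OPCs was above the microglial limit in replicate 1 and inside it in replicate 2. Slit1 reached 3.85% (1.42% to 8.18%) and 7.41% (3.89% to 12.6%) of CGE cells. In neuroblasts it was found in 1.5% (0.552% to 3.24%) and 1.74% (0.752% to 3.39%) of cells, and in OPCs, astroglia and glutamatergic cells in at most 0.754%. The shares of neuroblasts, OPCs, astroglia and glutamatergic cells lay within the microglial limits for Slit1, 0 of 120 cells and 0.714% (0.0181% to 3.92%). These limits are too wide to tell shares of this size from free RNA. The CGE shares lay above the limits, with intervals that reach into them. Slit3 was at or under 0.431% in all 6 groups, beside 0 of 120 and 0 of 140 microglia, and no difference of these shares from microglia was detectable at this depth. In CPM, glutamatergic cells were above microglia in both libraries for Slit1 and Slit3. Without thinning, shares were higher throughout, for example 50.3% and 61.9% for Robo1 and 61.6% and 67.6% for Robo2 in glutamatergic cells with median depths of 6191 and 7000 UMIs.

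**Figure D3:**
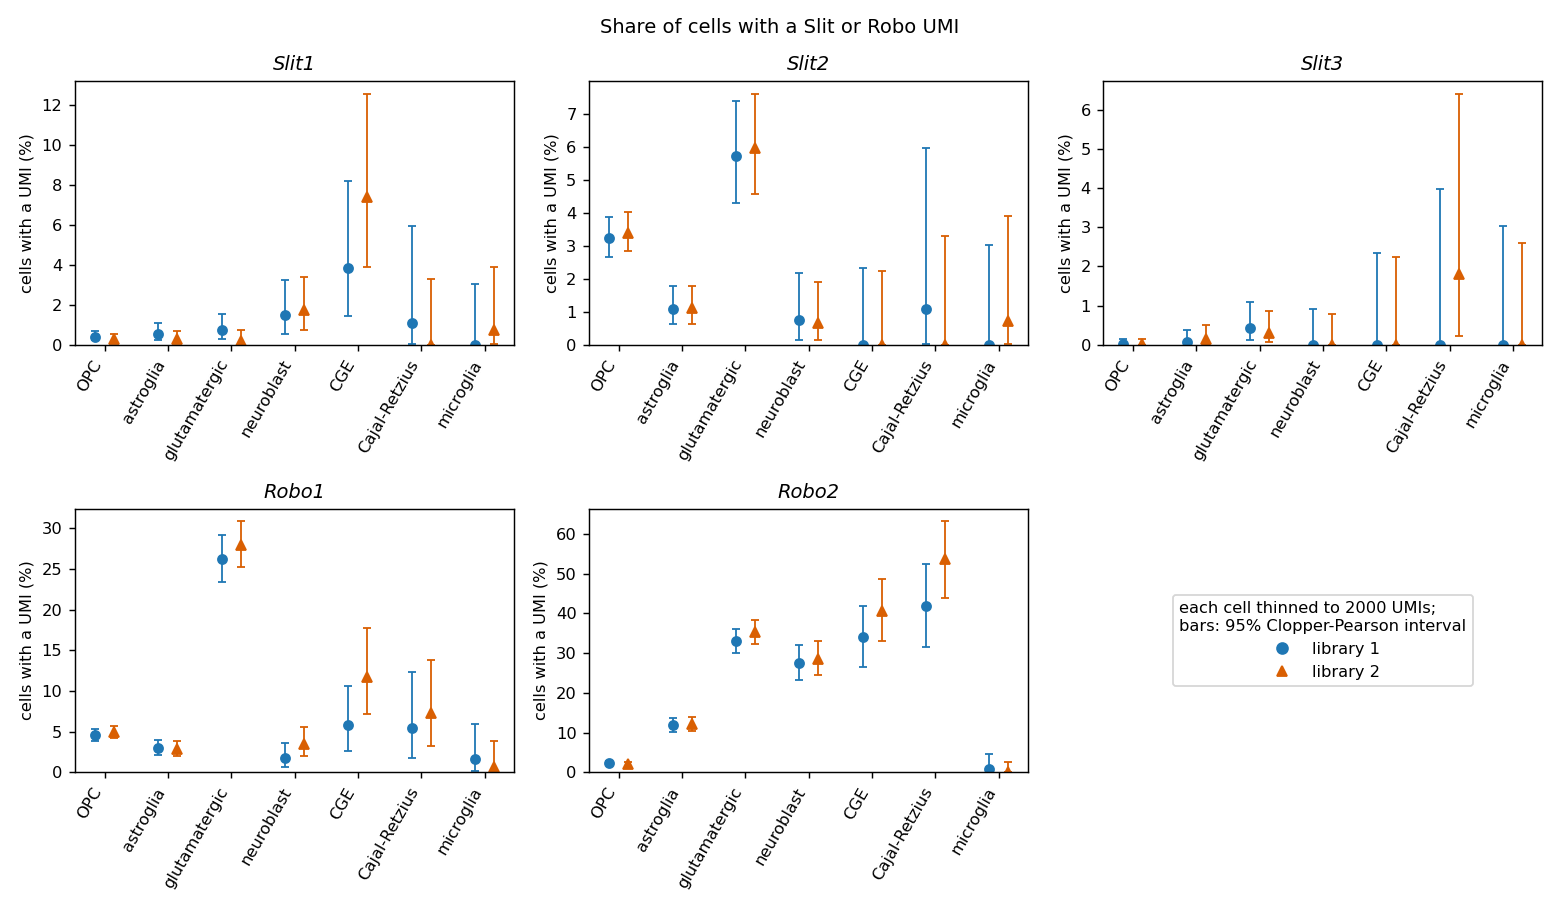
Percent of cells with a UMI of each member after thinning to 2000 UMIs, for 7 groups and both libraries, with 95% Clopper-Pearson bars. MGE cells, with 15 and 16 cells, are not drawn. Robo1 stands apart in glutamatergic cells at 26.2% and 28.0%, whereas Robo2 is above 27% in 4 neuronal groups.

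Among thinned glutamatergic cells 10.0% and 10.8% held UMIs of both Robo1 and Robo2, beside 8.63% and 9.88% from the product of the single shares. A UMI of either receptor was found in 49.1% and 52.4% of them. Slit2 and Robo1 were found together in 2.48% and 2.79% of glutamatergic cells, beside 1.5% and 1.67% from the product of the single shares. Slit2 and Robo2 were found together in 2.16% and 2.09%, beside 1.88% and 2.11%. In OPCs, Slit2 and Robo1 were found together in 7 and 8 cells of 3529 and 3650. These counts are descriptions, since cells of a library are not replicates.

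Division was compared inside 3 gates. Dividing cells held at least 2 UMIs of Mki67 and Top2a together and non-dividing cells none, in a model of 12 sums, where 13944 genes and all members except Slit3 passed the filter. Dividing cells made up 52.4% and 53.5% of neuroblasts, 18.9% and 21.2% of OPCs and 13.6% and 13.9% of astroglia. Dividing cells had deeper sums per cell, with median depths of 12648 and 13092 against 7820 and 8579.5 UMIs in OPCs, and the part of depth was not tested. Robo2 in neuroblasts was at 197 and 241 CPM in non-dividing cells and 128 and 160 CPM in dividing cells, lower with division in both libraries. The difference was -0.49 ± 0.10 on the log2 scale (edgeR adjusted p = 0.000252), the single member called there beside 18.6% of all genes. In astroglia Robo2 was at 58.3 and 65.9 CPM in non-dividing and 31.2 and 52.2 CPM in dividing cells, a difference of -0.52 ± 0.11 (edgeR adjusted p = 0.000243). It was -0.89 in replicate 1 alone and -0.32 in replicate 2 alone.

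Robo1 in astroglia was also lower with division, at 16.1 and 14.8 CPM against 9.84 and 10.4 CPM (-0.56 ± 0.18, edgeR adjusted p = 0.0159), so that 2 members were called in astroglia beside 34.0% of all genes. In OPCs 0 of the 4 members tested were called, beside 40.6% of all genes, and DESeq2's Wald test also called 0. Slit2 there was at 17.1 and 17.6 CPM in non-dividing and 13.7 and 15.2 CPM in dividing cells (-0.27 ± 0.11, edgeR adjusted p = 0.0577). It was called in 2 of 5 alternatives (adjusted p from 0.0220 to 0.391). Slit1 in OPCs was at 1.48 and 1.49 CPM in non-dividing and 2.25 and 2.76 CPM in dividing cells (0.75 ± 0.35, edgeR adjusted p = 0.0800), and Robo1 at 22.5 and 23.4 against 19.1 and 21.1 CPM (-0.19 ± 0.09, adjusted p = 0.0889).

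The division effect itself was compared between gates. That of Robo2 differed between OPCs and astroglia by 0.53 ± 0.18 (interaction term, edgeR adjusted p = 0.0443), where 12.9% of all genes were called. The same term was 0.51 ± 0.17 between OPCs and neuroblasts (edgeR adjusted p = 0.0753, 5.79% of genes called) and -0.03 ± 0.15 between astroglia and neuroblasts (adjusted p = 0.963, 7.12% of genes called). No other member had a called difference of this kind.

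**Figure D4:**
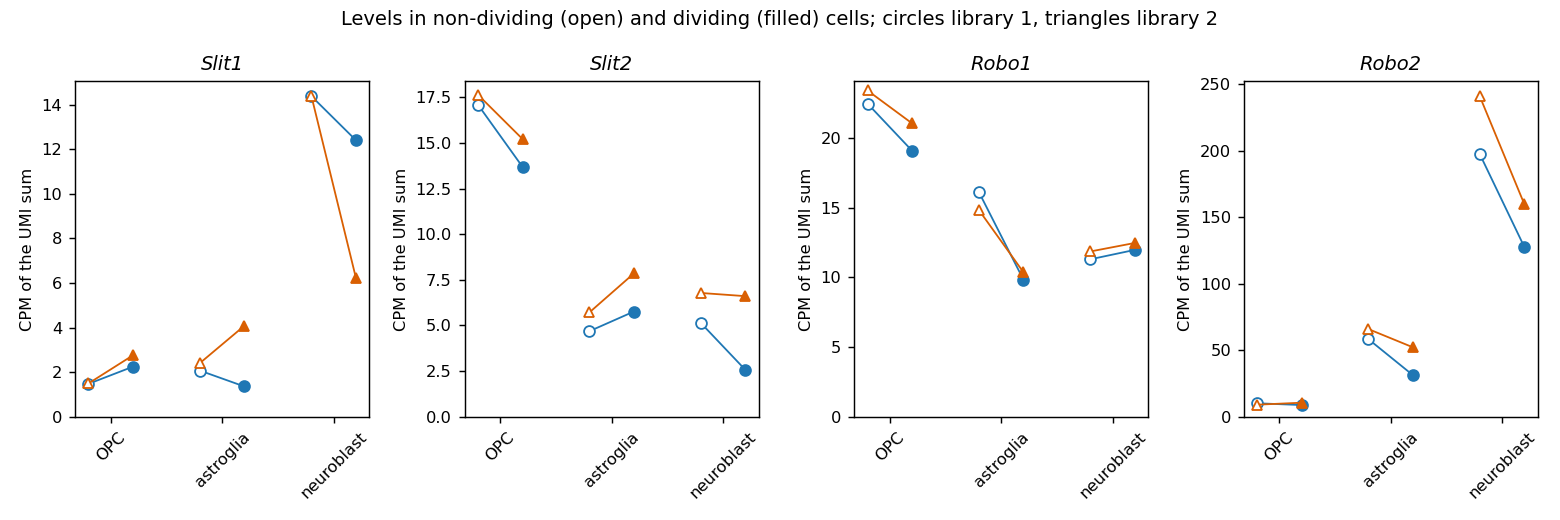
CPM of 4 members in non-dividing (open) and dividing (filled) cells of 3 gates, with lines joining values of the same library. Robo2 falls from 197 to 128 and from 241 to 160 in neuroblasts, and in OPCs it stays between 8.78 and 10.5.

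Genes whose pattern was most like a member's were taken by Pearson's r of log2(CPM + 1) over the 16 sums of 8 groups and 2 libraries, among 9570 genes, as a description in which all genes share the same libraries. For Slit1 they were Slc32a1 (r = 0.957), which encodes the vesicular GABA transporter, Neb (0.949) and Trpc4 (0.943). Robo1 was nearest to Galnt17 (r = 0.957), Gm26871 and Gpr85 (0.947), in that order, and Robo2 to Snn (0.960), Rab11b (0.936) and Gnb1 (0.933). Slit2 was nearest to Lmo1 (r = 0.915), Parn (0.908) and Imp3 (0.866). For Slit3, with few UMIs, they were Tbr1 (r = 0.904), Nxph3 (0.882) and Slc17a6 (0.850), which encodes a vesicular glutamate transporter.

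A list of 36 other genes of the pathway, receptors, intracellular regulators, proteoglycans and partner receptors, gave 34 that passed the filter, Robo4 and Prrg4 being too low. Between OPCs and glutamatergic cells 14 were called higher in OPCs and 11 in glutamatergic cells, 73.5% of those tested beside 67.3% of all genes, with a median log2 difference of 0.04 beside 0.01 over all genes. Dscam, which encodes an adhesion receptor, was higher in OPCs (120 ± 9.78 against 33.9 ± 3.43 CPM, SD, n = 2 libraries), as was Nck1, an adaptor (33.3 ± 2.35 against 12.3 ± 0.687 CPM). Robo3, the divergent family receptor that does not bind Slits in mammals, had 2 UMIs in OPCs, 6 in glutamatergic cells and 16 in neuroblasts. Between OPCs and astroglia 17 were called higher in OPCs and 9 in astroglia, 76.5% beside 68.7% of all genes (median 0.16 beside 0.04). Dscam stood at 120 ± 9.78 CPM in OPCs and 3.62 ± 0.138 CPM in astroglia. Nell2, a secreted ligand of Robo3, stood at 137 ± 13.3 CPM in OPCs and 20.8 ± 1.95 CPM in astroglia. Sdc4, a syndecan, stood at 2.92 ± 0.852 and 53.1 ± 3.90 CPM in the same order.

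Between astroglia and glutamatergic cells 11 pathway genes were called higher in astroglia and 15 in glutamatergic cells, 76.5% beside 72.8% of all genes (median 0.01 beside 0.00). Dcc, the netrin receptor, stood at 10.8 ± 0.936 CPM in astroglia and 130 ± 16.0 CPM in glutamatergic cells (SD, n = 2), with Dscam also higher in glutamatergic cells and Sdc4 in astroglia. Between glutamatergic cells and neuroblasts 12 were called higher in each, 70.6% beside 50.0% of all genes, and Sdc3, another syndecan, stood at 78.3 ± 2.85 and 11.0 ± 1.60 CPM. Plxna1, a semaphorin and Slit receptor, stood at 12.9 ± 2.21 and 2.47 ± 0.618 CPM there. Neuroblasts and CGE cells differed in 13 pathway genes, 6 called higher in neuroblasts and 7 in CGE cells, 38.2% beside 25.1% of all genes. Among them were Plxna1 (2.47 ± 0.618 against 16.0 ± 7.49 CPM), Sdc1 (13.4 ± 0.773 against 4.17 ± 0.158 CPM) and Sdc4, whose CGE values of 24.3 and 1.07 CPM differed between libraries. In the 5 pairs with MGE cells 2 to 13 pathway genes were called, 5.88% to 38.2% beside 6.51% to 20.2% of all genes. There the median difference of all genes was 0.42 to 0.55 in favour of the other group, with sums of 89198 and 81328 UMIs behind the MGE values.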

How the data were processed

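Single-cell RNA was measured in 2 mouse libraries. The deposited values are UMI counts per gene and barcode from the 10x Genomics 3' chemistry, made with Cell Ranger 6.0.2 per the file headers. The genome build mm10 and the tools R 4.1.0 and Seurat 4.1.0 appear in the submitters' processing notes without a stated use. The annotation behind the counts is not given in sources used here. The libraries held 97091962 and 108903409 UMIs in 13858 and 14513 barcodes. Barcodes with at least 500 genes and at most 10% mitochondrial UMIs were kept. Cells of a fibroblast gate (Col1a2) and a Cajal-Retzius gate (Reln with Trp73) were taken out of the 6 groups first, and cells passing several gates were left out. Doublets were otherwise kept, and barcodes marked by Scrublet in scanpy 1.11.5 (829 and 808) were removed as an alternative.

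Cells are not replicates, so counts were summed per library and group, for groups of at least 20 cells in both libraries. The test was that of edgeR 4.0.16 in R 4.3.3 (TMM, filterByExpr, quasi-likelihood test, Benjamini-Hochberg adjustment per pair over all genes, threshold 0.05), with the library as a block, since same-numbered sums come from the same sorted cells. The code was tested on simulated data. CPM are computed from total UMIs of a sum, and a floor is 3 counts over both libraries. DESeq2 1.42.0 was an alternative. Shares used cells thinned to 2000 UMIs. Python 3.11.15 with numpy 2.4.6, scipy 1.17.1, anndata 0.12.19 and matplotlib 3.10.9 was used. The members, gene lists and gates were chosen with earlier results of these data known. Named were the 5 members, for described pairs of groups the 3 called pathway genes with the largest absolute log2 difference, and the 3 genes most like each member, gate markers left out, with a mean of at least 10 CPM.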

Additional observations from a re-analysis of the deposited data

Results flagged for a closer look

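The log2 change of Robo2 with division was 0.53 higher in OPCs than in astroglia (SE 0.18, interaction term, edgeR adjusted p = 0.0443), a difference between cell groups under the same contrast. In OPCs the change was 0.02 over both libraries, -0.25 in replicate 1 alone and 0.18 in replicate 2 alone, so the libraries moved in opposite directions there. In astroglia both moved down. Computed without a test, the difference was 0.35 with Scrublet doublets left out and between 0.50 and 0.64 under the other 6 alternatives. Median depths of dividing cells were 12648 and 13092 UMIs in OPCs and 13512 and 14227 UMIs in astroglia, and the part of depth in the difference was not tested.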

How the results depend on the processing

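Over 11 alternatives with a test, 746 member differences were recomputed. Of these, 723 stayed on the same side of the threshold, 18 lost and 5 gained a call. Among differences called in the main fit or in the alternative, 0 reversed. For differences called in neither, a change of direction was not counted. Of the 50 calls, 43 held under every alternative in which their pair could be fitted. For calls with MGE cells these were 8 of the 11. The count of called member differences was 47 without the replicate block, where the count for Robo2 was 11 in place of 14, and 47 with DESeq2's Wald test. Robo2 was called in 7 pairs with gates of at least 4 UMIs and in 9 with at most 5% mitochondrial UMIs. In these, and with gates of 1 UMI, the MGE gate fell below 20 cells in a library, so that only 10 pairs could be fitted, of which Robo2 was called in 10 with the settings of the report. Single libraries, which allow no test, gave the same direction for all 50 calls. The calls were made from these same 2 libraries, so the shared direction is no separate support. Of the 150 differences from single libraries, 54 moved by more than 1 SE of the fitted difference. Limits are the 2 libraries of 1 group, the low depth of MGE cells, and gates on single markers, which miss shallow cells.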
